A study of Mus musculus with 2 samples.

Results

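The cytochrome P450 enzymes of families 1 to 4 were followed from undamaged to regenerating mouse liver. Members were chosen by gene symbol. Every listed gene of these families was taken except pseudogenes and the 6 genes Cyp1a2, Cyp2e1, Cyp2f2, Cyp4a12a, Cyp4a12b and Cyp2d9. This gave 76 of the 27998 listed genes. Of these, 46 had at least 20 unique molecular identifiers (UMIs, each marking a captured transcript molecule) over both libraries and are reported, 15 had 1 to 19 UMIs, and 15 had none. The 76 members held 2930431 UMIs in all.

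Livers of C57BL/6 mice on a normal diet were perfused with collagenase, and the hepatocytes obtained were profiled by droplet single-cell RNA-Seq (10X Genomics 3′ chemistry). The undamaged group (0 h) was liver before surgery, and the PHx48h group was liver 48 h after partial hepatectomy (PHx), surgery that takes out the larger share of the organ and leaves a remnant that regrows. The labels give an age of 10 to 12 weeks, and the study's methods give male mice that were slightly younger. Each group was 1 library made from part of the cells of 1 mouse, so the groups have no replicate, a difference between mice cannot be told apart from an effect of PHx, and no test was possible. All intervals below are 95% intervals for counting error only.

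The 0 h library held 59202 barcodes and 96118593 UMIs, and the PHx48h library held 1586 barcodes and 18198719 UMIs. Barcodes were divided by the share of their UMIs that came from 13 mitochondrial genes. Barcodes above 30% numbered 3870 at 0 h and 765 at 48 h, with medians of 1213.5 and 4411 non-mitochondrial UMIs. Barcodes under 2% numbered 52587 and 522, with medians of 1413 and 5271.5. The barcodes above 30% thus made up 6.54% of the first library and 48.2% of the other. The study kept far fewer cells at 0 h and fewer at 48 h, and it left out cells with high mitochondrial content. The barcodes counted here are therefore not the cells of the study, and a barcode need not hold a cell. The sets are called high-mitochondrial and low-mitochondrial below, and levels are counts per 1000000 non-mitochondrial UMIs of a set (CPM). Because the 3′ chemistry tags the end of a transcript, levels were not divided by gene length. All 10 hepatocyte markers were detected in every set, at 65059 to 106749 CPM in sum. In the same sets, 7 lists of markers for other liver cell types reached 0 to 159 CPM each. Barcodes with at least 5 UMIs of those other markers also held all 10 hepatocyte markers, at 51240 CPM at 0 h and 48892.5 at 48 h. Detection of hepatocyte markers alone therefore does not tell hepatocytes from other barcodes. The 2 libraries shared 148 barcode sequences.

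P450 enzymes are heme proteins of the endoplasmic reticulum that use oxygen and electrons from P450 reductase (Por) to oxidize drugs, steroids, fatty acids and other lipophilic compounds. Families 1 to 3 take part mainly in the clearance of foreign compounds and steroids, and family 4 mainly in the hydroxylation of fatty acids. In the liver many of them are under the control of nuclear receptors, among them CAR (Nr1i3), PXR (Nr1i2) and PPARα (Ppara), and many are expressed most strongly in the hepatocytes around the central vein.

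Summed over all members, P450 transcripts were lower at 48 h in both sets. In the high-mitochondrial set they made up 21014 CPM at 0 h (20896 to 21133) and 13797 at 48 h (13695 to 13899), a log2 ratio of -0.61. Low-mitochondrial barcodes went from 31991 to 9685 CPM, a log2 ratio of -1.72. The 6 genes left out by the rule went further down, with log2 ratios of -1.66 and -2.64. Most subfamilies followed the sum, and Cyp2a, Cyp2b, Cyp3a and Cyp4a stood apart in at least 1 set.

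Subfamilies differed in size as well as direction. Cyp2c enzymes, which metabolize drugs and arachidonic acid, went from 5690 to 2033 CPM in the high-mitochondrial set (log2 -1.48) and from 10423 to 2207 in the low-mitochondrial set (log2 -2.24). Cyp2d went from 3716 to 1770 (log2 -1.07) and from 2221 to 640 (log2 -1.80). Cyp2j, whose members make epoxides of arachidonic acid, went from 537 to 271 (log2 -0.98) and from 719 to 208 (log2 -1.79). Cyp4f, ω-hydroxylases of leukotrienes and fatty acids, went from 570 to 310 (log2 -0.88) and from 488 to 138 (log2 -1.82). Cyp4v, with the fatty acid hydroxylase Cyp4v3 as its member, went from 631 to 285 (log2 -1.15) and from 867 to 173 (log2 -2.33). These 5 subfamilies were lower at 48 h in both sets, and their ratio was lower in the low-mitochondrial set in each case.

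The remaining 4 subfamilies gave other patterns. Cyp3a, the main drug-oxidizing subfamily, was at 8337 and 7637 CPM in the high-mitochondrial set (log2 -0.13) and at 15742 and 5144 in the low-mitochondrial set (log2 -1.61). Cyp2a was at 1220 and 1147 CPM (log2 -0.09) and at 1148 and 917 (log2 -0.32). The sign of the first of these ratios depended on the barcodes used, with 0.06 above 50% mitochondrial UMIs. Under TMM scaling (taken up below) the Cyp2a ratios were -0.65 and -0.67, so their size depended on the scaling. Cyp4a, ω-hydroxylases of fatty acids, went from 126 to 218 (log2 0.79) and from 201 to 203 (log2 0.02), the latter sign turning under other scalings. Cyp2b, inducible by phenobarbital, went from 10.6 to 37.2 (log2 1.82) in the high-mitochondrial set and from 20.2 to 11.2 (log2 -0.85) in the low-mitochondrial set.

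**Figure D1:**
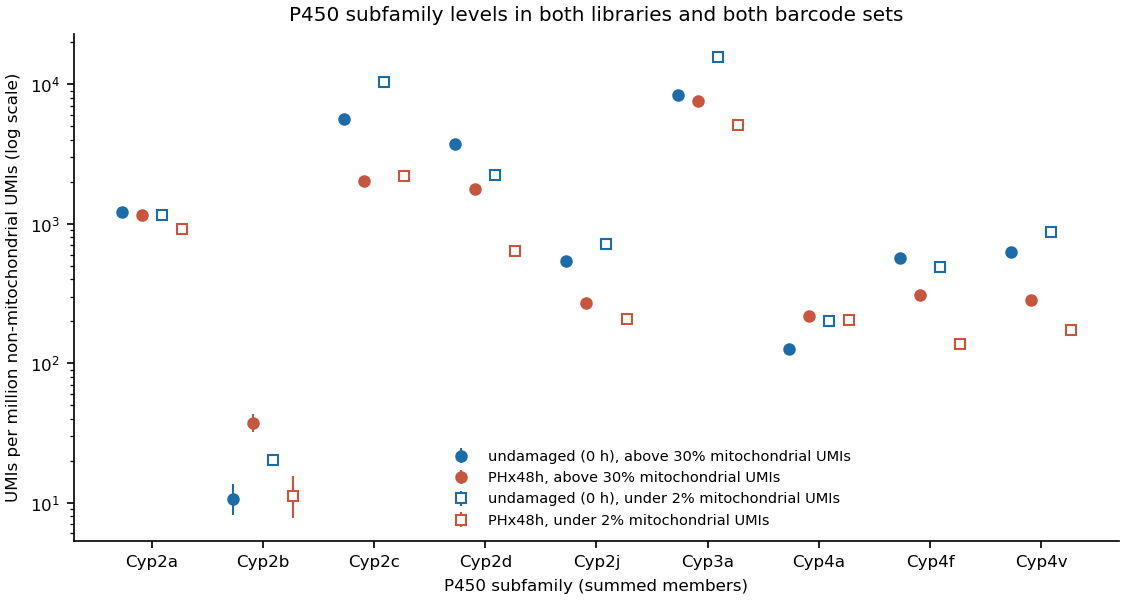
Levels of the 9 P450 subfamilies in CPM (log scale), with 95% counting intervals, for both libraries (blue 0 h, red PHx48h) and both barcode sets (filled circles above 30% mitochondrial UMIs, open squares under 2%). Cyp2c, Cyp2d, Cyp2j, Cyp4f and Cyp4v are lower at 48 h in both sets, and Cyp2b moves in opposite directions.

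The make-up of the P450 transcripts shifted accordingly. In the high-mitochondrial set the Cyp2c share of all member UMIs went from 27.1% (exact binomial interval 26.8 to 27.3) to 14.7%, and the Cyp2d share from 17.7% to 12.8%. The share of Cyp3a11 alone went from 33.6% (33.3 to 33.9) to 48.1% (47.7 to 48.4), and the Cyp2a share from 5.80% to 8.32%. In the low-mitochondrial set the Cyp3a11 share was 45.8% and 49.7%, the Cyp2c share 32.6% and 22.8%, and the Cyp2a share 3.59% and 9.47%. Cyp3a11 was the most abundant member in all 4 sets.

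**Figure D2:**
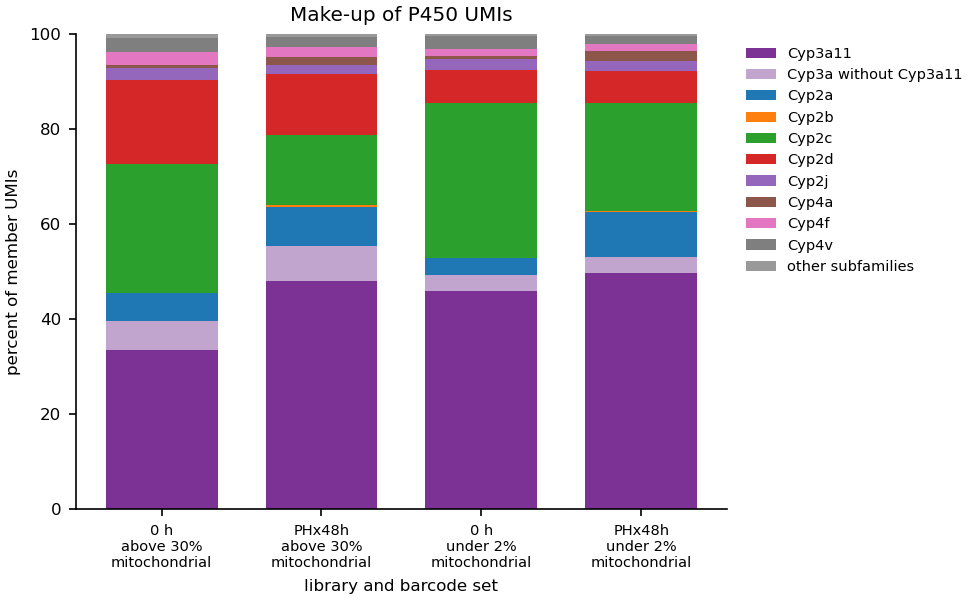
Percent of all member UMIs held by each P450 subfamily, with Cyp3a11 apart from the rest of Cyp3a, in both libraries and both barcode sets. The Cyp2c part is smaller at 48 h in both sets (27.1% to 14.7% above 30% mitochondrial UMIs, 32.6% to 22.8% under 2%), and the Cyp2a part is larger.

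Among single members, lower values outnumbered higher ones. In the high-mitochondrial set 39 members had at least 20 UMIs. Of these, 14 were at least 2-fold lower at 48 h, against 5.69% of the 10205 genes at that depth, and 7 were at least 2-fold higher, against 31.8%. Their median log2 ratio was -0.59, while the median of all 10205 genes was 0.56. In the low-mitochondrial set 45 members were deep enough, of which 23 were at least 2-fold lower (18.6% of 11867 genes) and 6 at least 2-fold higher (26.2%). Their median was -1.20, against 0.14 for all genes, so the P450 ratios lay below the general shift in both sets. TMM scaling removes most of that shift in the high-mitochondrial set (median of all genes -0.005) and takes the median to -0.23 in the other. With TMM, the split in the high-mitochondrial set was 23 lower and 6 higher. The shares of all genes given above are for ratios without TMM, so this split cannot be set against them.

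The 2 sets were set side by side for the 39 members deep enough in both. Of these, 28 were lower at 48 h in both sets, 8 were higher in both, and 3 (Cyp2b10, Cyp3a59 and Cyp2r1) were higher in the high-mitochondrial set and lower in the other. All 14 members that were at least 2-fold lower in the high-mitochondrial set were so in the low-mitochondrial set too. Shares of all genes lower or higher in both sets were not computed. Taken singly, 2810 of 10205 genes were lower at 48 h in the high-mitochondrial set and 5399 of 11867 in the other. Both sets come from the same 2 libraries, so agreement between them is not a repeat of the result. The ratio was lower in the low-mitochondrial set for 35 of 39 members (89.7%), against 73.3% of all 10164 genes with that depth in both sets. The share of members with opposite directions was small beside the 30.4% of all genes.

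**Figure D3:**
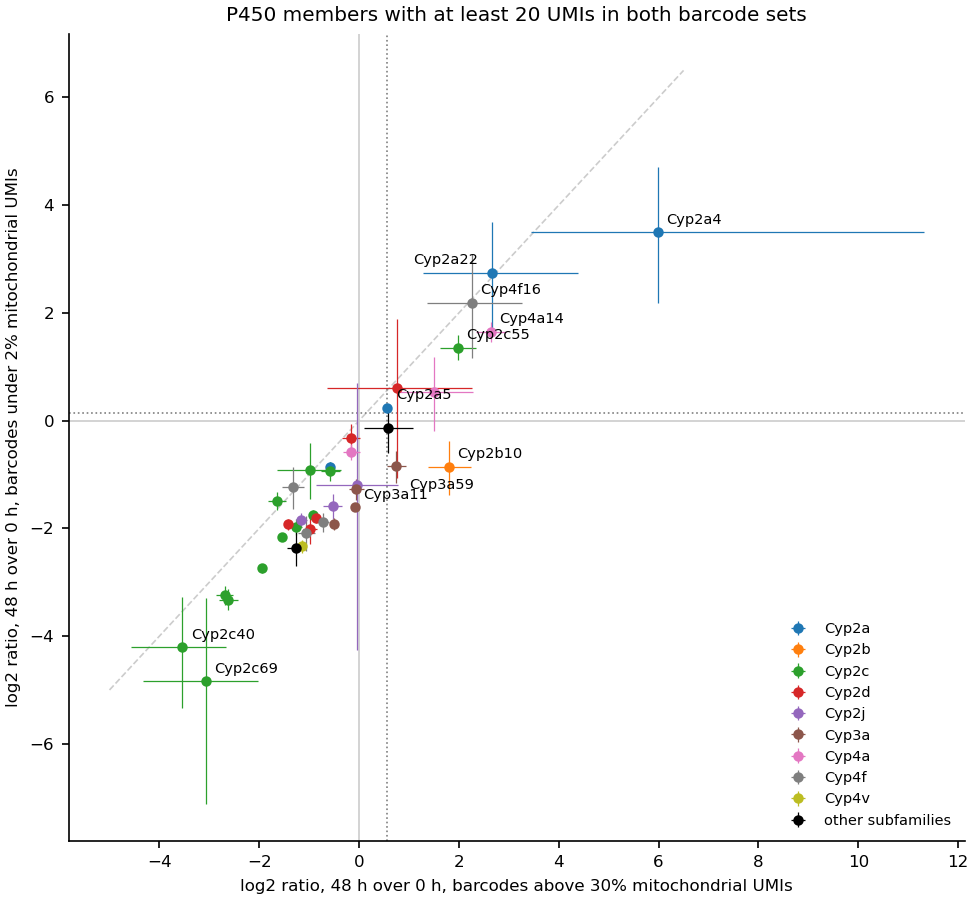
Log2 ratio of 48 h over 0 h for the 39 P450 members with at least 20 UMIs in both barcode sets, above 30% mitochondrial UMIs (x axis) against under 2% (y axis), coloured by subfamily, with 95% counting intervals. Dotted lines mark the median of all genes (0.56 and 0.14), the dashed line marks equality, and 35 of the 39 points lie below the dashed line.

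The Cyp2c genes held the lowest ratios. This subfamily lies as a cluster on chromosome 19 (chr19:39007019-44029208 in GRCm38, 15 members). In the high-mitochondrial set 12 of its members were deep enough, 8 of them at least 2-fold lower and 1 at least 2-fold higher. Of all genes in that set, 5.69% were at least 2-fold lower and 31.8% at least 2-fold higher. Some of these members share sequence at their transcript ends, so they are not separate cases. Cyp2c29, its most abundant member and a target of CAR, went from 1923 to 663 CPM (log2 -1.54, interval -1.59 to -1.48) in the high-mitochondrial set and from 3889 to 865 (log2 -2.17) in the other. Cyp2c50 went from 1170 to 305 (log2 -1.94) and from 2481 to 372 (log2 -2.74). Cyp2c70, the enzyme that makes muricholic acids from chenodeoxycholic acid in mice, had a smaller difference, from 1091 to 575 (log2 -0.92) and from 1441 to 430 (log2 -1.75). The order of these 3 members by ratio was thus the same in both sets.

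Cyp2c40 had the lowest ratio of the subfamily in the high-mitochondrial set. It went from 25.1 to 2.16 CPM there (145 and 11 UMIs, log2 -3.54, interval -4.58 to -2.66) and from 52.9 to 2.87 in the low-mitochondrial set (log2 -4.21). Cyp2c69, its neighbour, went from 76 to 8 UMIs (log2 -3.07, interval -4.33 to -2.02) and from 2159 to 3 UMIs (log2 -4.84). Cyp2c54 and Cyp2c37 followed with log2 ratios of -2.70 and -2.62 in the high-mitochondrial set and -3.24 and -3.32 in the other. Over these 4 members and both sets the smallest difference was 6.14-fold, for Cyp2c37. Cyp2c40, Cyp2c67, Cyp2c68 and Cyp2c69 share 28.4% to 42.6% of the 75-base windows in their last 500 transcript bases with each other or with further genes. Reads from those windows do not tell the genes apart, so their single values are uncertain.

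The remaining Cyp2c members had smaller differences or few UMIs. Cyp2c44 went from 405 to 170 CPM (log2 -1.26) and from 490 to 125 (log2 -1.97). Cyp2c67 had log2 ratios of -1.65 and -1.50, Cyp2c68 of -0.57 and -0.94, and Cyp2c38 of -0.99 and -0.92. Cyp2c39 had 2 and 4 UMIs in the high-mitochondrial set and 24 and 2 in the other.

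Cyp2c55, a CAR target with low expression in resting liver, moved the other way. It went from 15.2 CPM (12.2 to 18.8) to 60.0 (53.4 to 67.1) in the high-mitochondrial set, a log2 ratio of 1.98, and from 21.8 to 55.8 in the other, a log2 ratio of 1.36. Of the 4 listed CAR targets, Cyp2c29 and Cyp2c37 were lower in both sets, Cyp2c55 was higher in both, and Cyp2b10 was higher in the high-mitochondrial set. The known target genes of 1 receptor were therefore not of 1 direction.

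The sequence before the start of 3 Cyp2c genes is shown because these genes mark both extremes of the subfamily. They are the 250 bases before the RefSeq start, read 5′ to 3′ on the strand of the gene (GRCm38.p6). They lie at chr19:39812815-39813064 (minus strand), chr19:39886770-39887019 (minus strand) and chr19:39006769-39007018 (plus strand). Capitals mark the letters TATAAA (the TATA box) and CAAAGTCCA (the core of sites for HNF4A, a nuclear receptor of hepatocytes).
Cyp2c40: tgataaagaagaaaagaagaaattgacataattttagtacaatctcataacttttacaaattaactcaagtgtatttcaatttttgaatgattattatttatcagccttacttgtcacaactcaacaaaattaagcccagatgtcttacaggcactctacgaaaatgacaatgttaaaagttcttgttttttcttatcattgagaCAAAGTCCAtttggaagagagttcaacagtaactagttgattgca
Cyp2c69: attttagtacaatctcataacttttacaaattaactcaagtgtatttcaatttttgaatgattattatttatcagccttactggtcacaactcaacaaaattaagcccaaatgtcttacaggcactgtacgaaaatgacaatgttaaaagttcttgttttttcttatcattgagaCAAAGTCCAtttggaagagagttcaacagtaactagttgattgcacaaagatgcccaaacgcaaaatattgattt
Cyp2c55: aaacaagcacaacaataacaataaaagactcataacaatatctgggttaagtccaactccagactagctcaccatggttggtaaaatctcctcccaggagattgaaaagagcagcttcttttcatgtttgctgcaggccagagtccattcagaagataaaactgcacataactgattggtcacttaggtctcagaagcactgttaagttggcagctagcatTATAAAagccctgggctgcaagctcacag

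In the printed stretches Cyp2c40 and Cyp2c69 carry the HNF4A letters, 45 and 75 bases before the RefSeq start, and Cyp2c55 carries a TATA box 29 bases before it. GENCODE places the start of Cyp2c69 30 bases further upstream, at which the letters of both genes lie equally far from the start. Promoters of 300 bases (250 before and 50 after the start) were found for 36 of the 46 reported members among 32851 RefSeq promoters, and 6 motifs were searched on both strands. CAAAGTCCA stood in 6 of the 36 (16.7%; Cyp2c40, Cyp2c67, Cyp2c68, Cyp2c69, Cyp2c70 and Cyp3a11), against 0.475% of all promoters. Of these 6 promoters, those of Cyp2c40, Cyp2c67, Cyp2c68 and Cyp2c69 belong to neighbouring genes and share sequence. Each was 63.1% to 91.3% identical to its closest match among them, so they are not independent cases. The Cyp2c70 promoter was 49.3% to 51.9% identical to theirs. The log2 ratios of the 6 genes in the high-mitochondrial set ran from -3.54 for Cyp2c40 through -0.57 for Cyp2c68 to -0.09 for Cyp3a11, so genes with the same letters differed widely. TATAAA stood in 20 of the 36 (55.6%), against 13.6% of all, and the 20 include Cyp2c40 and Cyp2c69, whose match lies outside the printed stretch. The DR1 repeat bound by nuclear receptors stood in 0 member promoters, the HNF1 motif in 1 (Cyp4a32), TTGCGCAA (C/EBP) in 0 and TTCNNNGAA (STAT) in 2 (Cyp4b1 and Cyp4f13), against 0.0396%, 0.399%, 0.183% and 8.30% of all promoters. A match is a description of letters and says nothing on binding.

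Cyp3a11, the main murine counterpart of human CYP3A4 and a target of PXR (chr5:145854426-145879964), was the deepest member with 1329803 UMIs. Its level in the high-mitochondrial set was 7062 CPM at 0 h (6994 to 7131) and 6633 at 48 h (6562 to 6704), a log2 ratio of -0.09. Low-mitochondrial barcodes held 14662 and 4816 CPM, a log2 ratio of -1.61. The 2 sets thus gave different ratios for the same gene. At 0 h its level in the low-mitochondrial set was 2.08 times that in the high-mitochondrial set, while at 48 h it was 0.726 times. Cyp3a25 went from 1069 to 759 (log2 -0.49) and from 851 to 225 (log2 -1.92). Cyp3a13, expressed in liver and gut, was at 139 and 134 (log2 -0.06) and at 175 and 72.1 (log2 -1.28). Cyp3a59 went from 65.9 to 110 (log2 0.74) in the high-mitochondrial set and from 54.7 to 30.3 (log2 -0.85) in the other. Cyp3a25 and Cyp3a59 share 4.77% of the windows of Cyp3a25.

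Within each library the sets also differed for the 3 most abundant Cyp2c members. At 0 h the level in the low-mitochondrial set was 2.02 times that in the high-mitochondrial set for Cyp2c29, 2.12 times for Cyp2c50 and 1.32 times for Cyp2c70. At 48 h the corresponding ratios were 1.30, 1.22 and 0.747, so the order of the sets turned for Cyp2c70, as it did for Cyp3a11, and not for the other 2. Cyp4f13 was the reverse, with 0.346 times at 0 h and 0.366 times at 48 h. Over all members the ratio was 1.52 at 0 h and 0.702 at 48 h, so the order of the sets turned between the libraries.

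The Cyp2a genes (chromosome 7, chr7:26307169-27037375, 4 members) divided among themselves. Cyp2a12, a steroid hydroxylase of the liver, went from 827 to 551 CPM (log2 -0.59) and from 705 to 389 (log2 -0.86). Cyp2a5, a coumarin 7-hydroxylase, went from 392 to 580 (log2 0.57, interval 0.49 to 0.64) and from 442 to 521 (log2 0.24, interval 0.17 to 0.31). Under TMM scaling these Cyp2a5 ratios were 0.00 and -0.11, so its direction depended on the scaling. Cyp2a22 rested on few molecules, 5 and 28 UMIs in the high-mitochondrial set (log2 2.66) and 45 and 12 in the other (log2 2.74).

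Cyp2a4, a steroid 15α-hydroxylase that is higher in female than in male mouse liver, had the highest ratio of all members in both sets, on few UMIs. With 5 CPM added to every level its log2 ratios were 1.63 and 0.58, below the 2.35 and 1.49 of Cyp4a14. It had 1 UMI at 0 h and 56 at 48 h in the high-mitochondrial set, or 0.173 and 11.0 CPM (log2 5.99, interval 3.45 to 11.32). In the low-mitochondrial set it had 20 and 9 UMIs, or 0.254 and 2.87 CPM (log2 3.50, interval 2.18 to 4.70). Cyp2a4 shares 23.7% of its 3′ windows with Cyp2a5 and a pseudogene, and reads from those windows do not tell the genes apart. In the high-mitochondrial set Cyp2a5 had 2265 UMIs at 0 h beside the 1 of Cyp2a4, and 2960 at 48 h beside 56. The part of the shared windows in these counts was not tested. Of the 6 other listed members known as female-predominant, none reached 20 UMIs. Cyp2b9 had 2 UMIs in all, Cyp2b13 had 1, Cyp3a41a had 3, Cyp3a16 and Cyp3a41b had 6 each, and Cyp3a44 had 14. Among the 7 members of that list, Cyp2a4 was thus the only one with enough UMIs for a ratio.

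The sequences before Cyp2a4 (chr7:26306942-26307191) and Cyp2a5 (chr7:26835089-26835338), both on the plus strand of chromosome 7 in GRCm38.p6, are shown because the genes gave such different ratios. Each is the 250 bases before the RefSeq start, with the TATA box in capitals. GENCODE places the starts of these genes 23 and 34 bases further upstream.
Cyp2a4: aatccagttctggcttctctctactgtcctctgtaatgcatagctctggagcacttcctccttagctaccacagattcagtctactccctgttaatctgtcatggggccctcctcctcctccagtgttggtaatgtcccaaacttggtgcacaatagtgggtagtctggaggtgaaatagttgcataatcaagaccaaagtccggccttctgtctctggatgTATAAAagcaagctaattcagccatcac
Cyp2a5: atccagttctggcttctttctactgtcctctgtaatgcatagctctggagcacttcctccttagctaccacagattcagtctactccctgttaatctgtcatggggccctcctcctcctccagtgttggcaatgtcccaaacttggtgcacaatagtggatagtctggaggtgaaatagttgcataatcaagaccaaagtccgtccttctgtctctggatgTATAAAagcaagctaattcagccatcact

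Over the aligned stretch the pair was 97.6% identical, the closest match among the matched members of a subfamily. Cyp3a25 and Cyp3a59 came next with 95.6%, and they too differed in ratio (log2 -0.49 and 0.74 in the high-mitochondrial set). Near-identity over this window therefore went with different ratios in both pairs.

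Cyp2b10, the classic target of CAR (chr7:25897620-25926624), was the Cyp2b member with enough UMIs. It had 61 UMIs at 0 h and 188 at 48 h in the high-mitochondrial set, or 10.6 CPM (8.07 to 13.6) and 36.8 (31.8 to 42.5), a log2 ratio of 1.80. The low-mitochondrial set had 1587 and 35 UMIs, or 20.2 and 11.2 CPM (log2 -0.85, interval -1.38 to -0.37). The intervals of the 2 ratios do not overlap, and the difference between the sets was not tested.

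The most abundant Cyp2d members were lower at 48 h in both sets. This subfamily lies at chr15:82370527-82794294. Cyp2d26 went from 1699 to 936 CPM (log2 -0.86) and from 1108 to 318 (log2 -1.80). Cyp2d10 went from 1688 to 628 (log2 -1.43) and from 908 to 239 (log2 -1.92), and 21.2% of its 3′ windows are shared with other Cyp2d sequences. Cyp2d22 went from 232 to 117 (log2 -0.99) and from 150 to 37.3 (log2 -2.01). Cyp2d12 had 8 and 12 UMIs in the high-mitochondrial set (log2 0.76, interval -0.65 to 2.26), an interval that includes 0. Cyp2d40 was at 94.7 and 84.4 (log2 -0.16) and at 53.2 and 42.7 (log2 -0.32). Cyp2d11 had 7 and 12 UMIs in the high-mitochondrial set and 49 and 1 in the other, and Cyp2d34 had 1 and 4 and 13 and 1. Unlike Cyp2c and Cyp3a, Cyp2d had a higher level in the high-mitochondrial set at 0 h, by 1.67 times. Cyp3a without Cyp3a11 (1.18 times), Cyp4f (1.17) and Cyp2a (1.06) were also higher in that set. Cyp2b, Cyp2j, Cyp4a and Cyp4v were lower there.

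Cyp2j5, an arachidonic acid epoxygenase of liver and kidney, went from 418 to 188 CPM (log2 -1.16) and from 571 to 158 (log2 -1.85). Cyp2j6 went from 114 to 78.6 (log2 -0.53) and from 147 to 48.8 (log2 -1.59). Cyp2j9 had 29 and 25 UMIs in the high-mitochondrial set (log2 -0.04, interval -0.87 to 0.79) and 115 and 2 in the other. All 3 reported Cyp2j members were at least 2-fold lower in the low-mitochondrial set, Cyp2j9 on only 2 UMIs at 48 h. Of all genes in that set, 18.6% were at least 2-fold lower. The other 5 listed members of the subfamily had no UMI.

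The fatty acid hydroxylases of Cyp4a (chr4:115242084-115621602) are known targets of PPARα. Cyp4a14 went from 18.5 CPM (15.2 to 22.4) to 115 (106 to 125) in the high-mitochondrial set, a log2 ratio of 2.63, and from 26.5 to 83.2 in the other, a log2 ratio of 1.65. Cyp4a10, the most abundant, went from 103 to 92.5 (log2 -0.15) and from 170 to 113 (log2 -0.58). Cyp4a31 went from 3.81 to 10.8 (22 and 55 UMIs) and from 4.39 to 6.38 (log2 0.54, interval -0.19 to 1.19). Cyp4a32 had 31 and 1 UMIs in the low-mitochondrial set. Without Cyp4a10 the subfamily had log2 ratios of 2.43 and 1.52. The 2 main members of the subfamily thus gave opposite signs in both sets. In the high-mitochondrial set, though, the Cyp4a10 ratio was near 0 (595 and 472 UMIs), so the contrast there rests on Cyp4a14.

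Cyp4f14 went from 288 to 175 CPM (log2 -0.72) and from 333 to 90.2 (log2 -1.89). Cyp4f15 went from 157 to 75.4 (log2 -1.06) and from 111 to 26.1 (log2 -2.09), and Cyp4f13 from 122 to 48.8 (log2 -1.32) and from 42.2 to 17.9 (log2 -1.24). Cyp4f16 was the exception of the subfamily, with 13 and 55 UMIs (log2 2.26, interval 1.37 to 3.26) and 66 and 12 (log2 2.19, interval 1.17 to 3.09). Cyp4v3 (chr8:45304944-45333216) had a log2 ratio of -1.15 and -2.33, as its subfamily holds no other gene.

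Members outside the 9 subfamilies were few and mostly low. Cyp2u1, which hydroxylates long-chain fatty acids, went from 164 to 68.2 CPM (log2 -1.27) and from 142 to 27.4 (log2 -2.37). Cyp2r1, a vitamin D 25-hydroxylase, was at 11.2 and 16.9 CPM (log2 0.58, interval 0.10 to 1.07), while the other set held 1304 and 47 UMIs (log2 -0.14, interval -0.60 to 0.28). Cyp1a1, the classic target of the Ah receptor, had 8 UMIs in the high-mitochondrial set and 39 in the other, where its log2 ratio was 0.44 (interval -2.66 to 2.40). Cyp4b1 had 134 UMIs at 0 h and 0 at 48 h in the low-mitochondrial set. With 3 counts in place of 0 it was at least 1.78-fold lower. Cyp2g1 had 5 and 7 UMIs in the high-mitochondrial set and 96 and 3 in the other. Of these 5 genes, Cyp2u1 alone gave a ratio beyond counting error in both sets.

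The spread of P450 transcripts over single barcodes was examined after thinning each barcode to 500 non-mitochondrial UMIs. This left 3786 barcodes at 0 h and 743 at 48 h in the high-mitochondrial set, with 75 too shallow at 0 h, and barcodes with at least 5 UMIs of other cell type markers were left out. A Cyp2c UMI was present in 86.4% of barcodes at 0 h (exact binomial interval 85.3 to 87.5) and in 62.2% at 48 h (58.6 to 65.7). The shares for Cyp2d were 85.3% and 58.0%, and those for Cyp3a11 93.2% and 95.2%. The shares for Cyp2a were 43.5% and 40.6%, for Cyp4a 5.97% and 11.3%, and for Cyp2b 0.396% and 2.02%. Without thinning the barcodes at 48 h were the deeper ones, and the shares were 97.2% and 99.2% for Cyp2c, 97.5% and 98.4% for Cyp2d, and 98.4% and 100% for Cyp3a11. The lower shares of Cyp2c and Cyp2d at 48 h were thus visible at equal depth only.

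P450 transcripts were also present in barcodes that carried markers of other cell types, which should lack most of them. There were 714 such barcodes at 0 h and 139 at 48 h, with medians of 2285 and 6379 non-mitochondrial UMIs, against 1227 and 4226 in the thinned high-mitochondrial barcodes. At the same depth of 500 UMIs their shares at 0 h were 92.4% for Cyp2c, 98.0% for Cyp3a11 and 49.4% for Cyp2d, and at 48 h they were 46.8%, 69.1% and 22.3%. At 0 h the Cyp2c and Cyp3a11 shares of the high-mitochondrial barcodes lay below these, as did those of Cyp4a and Cyp2b (6.44% and 0.560% in the other barcodes), so these shares alone do not separate expression from background, while the Cyp2d share lay above. Within the same 0 h barcodes the Cyp2c level was 3.20 times and the Cyp4a level 4.58 times as high at the perivenous as at the periportal end of the index described next, a difference that the shares do not show. At 48 h all 3 lay above. In the low-mitochondrial set at 0 h the variance of member UMIs over barcodes was 1.02 times the mean, near the value of 1 that repeated draws from 1 profile give, against 2.01 times in the high-mitochondrial set. At 48 h the values were 1.27 and 1.54. The low-mitochondrial barcodes at 0 h therefore carried P450 transcripts in nearly equal proportion to one another, and the part of free RNA in this was not tested.

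Zonation was examined in the high-mitochondrial set by ranking barcodes on the share of perivenous among perivenous and periportal marker UMIs, with lists that hold no member. The lists do hold left-out P450 genes, Cyp2e1 and Cyp1a2 as perivenous and Cyp2f2 as periportal. The perivenous and periportal ends of this ranking held 1282 barcodes each at 0 h and 247 each at 48 h, and with a median of 10 index UMIs per barcode at 0 h and 32 at 48 h the ends are ranges rather than cell types. The ends began at an index of 0.3 or less and 0.667 or more at 0 h and at 0.167 or less and 0.467 or more at 48 h, so ends of the same name do not cover the same range, and levels are compared between ends of 1 library. At 0 h both ends had like depth (medians of 1167 and 1166 UMIs), while at 48 h the perivenous end had 3515 and the periportal end 6484. At 0 h 8 of the 9 subfamilies were higher at the perivenous end, and at 48 h 4 of 9 were. Among the 8, Cyp2j had a log2 ratio of 0.04 with an interval that includes 0 (-0.09 to 0.17). The counts have no share of all genes beside them, so they describe the subfamilies only. With an index free of any P450 gene, the signs of Cyp2j and Cyp4f at 0 h turned.

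Among members with enough UMIs at both ends, Cyp2a5 was the most perivenous in both libraries. At 0 h it was at 67.9 CPM at the periportal end and 1122 at the perivenous end (log2 4.05), and at 48 h at 121 and 1692 (log2 3.81). Cyp2c29 went from 709 at the periportal end to 3877 at the perivenous end at 0 h (log2 2.45), and from 202 to 1725 at 48 h (log2 3.09). Cyp2c55 had log2 ratios of 2.20 and 1.88. These members were higher at the perivenous end in both libraries.

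Other members were flatter at 48 h or lay the other way. Cyp3a11 was 5368 and 9786 CPM at the periportal and perivenous ends at 0 h (log2 0.87, interval 0.83 to 0.90), and 6497 and 7327 at 48 h (log2 0.17, interval 0.13 to 0.21), so the ends lay closer together at 48 h. Cyp4a14 was at 6.74 and 34.0 CPM at the periportal and perivenous ends at 0 h (log2 2.33) and at 102 and 160 at 48 h (log2 0.64). Cyp2b10 was at 6.74 and 17.9 at 0 h (log2 1.41) and at 49.1 and 24.8 at 48 h (log2 -0.99), so its order turned. Cyp2a12 had log2 ratios of -0.68 and -0.87, and Cyp4v3 of -0.62 and -0.36, both higher at the periportal end in both libraries. Cyp3a25 was level, with -0.05 and -0.10. Depth also differed between the ends at 48 h, and its part in these ratios was not tested.

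**Figure D4:**
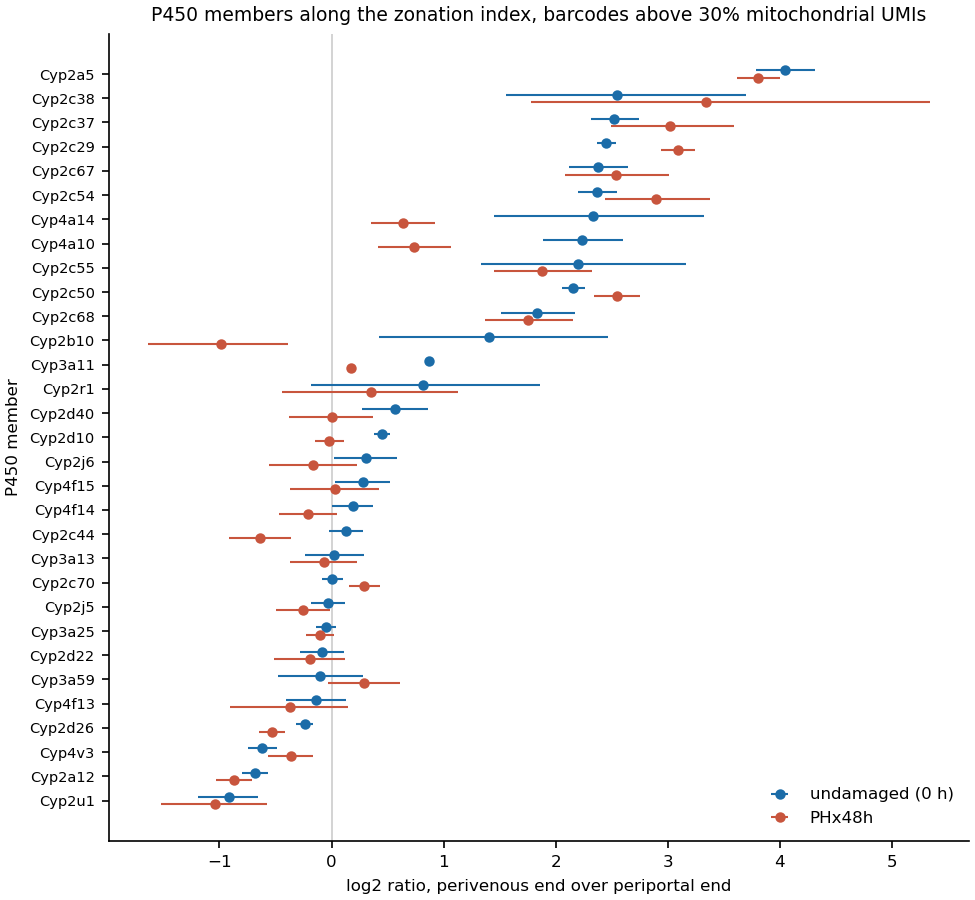
Log2 ratio of the perivenous over the periportal end of the zonation index for P450 members with enough UMIs in both libraries, in barcodes above 30% mitochondrial UMIs, with 95% counting intervals (blue 0 h, red PHx48h). Cyp2a5 lies farthest to the right in both libraries (4.05 and 3.81), Cyp4a14, Cyp4a10 and Cyp2b10 lie further left at 48 h, and Cyp2a12 and Cyp2u1 stay below 0.

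Genes that serve the P450 enzymes were divided in direction. Por, the electron donor, went from 182 to 473 CPM in the high-mitochondrial set (log2 1.38) and was at 193 and 180 in the other (log2 -0.11). Cyb5a, cytochrome b5, which passes electrons to some P450 enzymes, went from 328 to 1027 (log2 1.65) and from 955 to 3303 (log2 1.79). Pgrmc1, a heme-binding partner of P450 enzymes, went from 1538 to 732 (log2 -1.07) and from 2214 to 878 (log2 -1.33). Pgrmc2 (log2 -0.87 and -1.17) and Cyb5r3, the reductase of cytochrome b5 (log2 -0.51 and -0.73), were also lower in both sets, so 3 of the 6 listed electron donors and partners were lower in both. Of the 6, 1 was at least 2-fold lower and 2 at least 2-fold higher in the high-mitochondrial set, against 5.69% and 31.8% of all genes, and 2 and 1 in the other, against 18.6% and 26.2%. The counts of higher genes were near the share of all genes.

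Heme synthesis, which supplies the prosthetic group of the enzymes, had Alas1 and Alad among its higher genes. Alas1, its rate-limiting enzyme, went from 114 to 440 CPM (log2 1.95) and from 62.3 to 402 (log2 2.69). Alad went from 110 to 386 (log2 1.81) and from 131 to 364 (log2 1.48). Of the 8 listed genes, 4 were at least 2-fold higher and 0 at least 2-fold lower in the high-mitochondrial set, and in the other 3 were higher and 1, Cpox (log2 -1.57), was lower. Of all genes, 31.8% and 26.2% were at least 2-fold higher in these sets, and higher genes outnumbered lower ones among all genes as well. The median log2 ratio of the list was 1.07 and 0.65, against 0.56 and 0.14 for all genes. Under TMM scaling 2 genes were at least 2-fold higher in each set. Of the 4 heme breakdown genes, 3 and 2 were at least 2-fold higher, against the same 31.8% and 26.2% of all genes, among them Blvrb, a biliverdin reductase (log2 1.40 and 1.65), and with TMM 0 and 1 were.

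Among 19 listed receptors and other regulators, 17 had at least 20 UMIs. In the high-mitochondrial set 5 were at least 2-fold higher and 0 at least 2-fold lower, and in the low-mitochondrial set 2 were higher and 5 lower. Against 31.8% and 5.69% of all genes in the first set, and 26.2% and 18.6% in the other, the 5 higher regulators of the first set were near the share of all genes. Hnf4a had log2 ratios of 1.43 and 0.56, Ppara of 1.28 and 1.12, and Nr1i2 of 0.87 and 1.07. Nr1i3 was at 150 and 170 CPM (log2 0.18) and at 49.8 and 54.2 (log2 0.12), and the sign of both ratios turned under other scalings. Cebpb, a liver regulator induced in the acute phase, had ratios of 0.26 and -1.53, and Nr3c1, the glucocorticoid receptor, of 0.44 and -1.55, and in the high-mitochondrial set the sign of both turned under TMM scaling. With TMM 0 regulators were at least 2-fold higher in the high-mitochondrial set. The median log2 ratio of the regulators in the high-mitochondrial set was 0.75, beside -0.59 for the members and 0.56 for all genes.

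**Figure D5:**
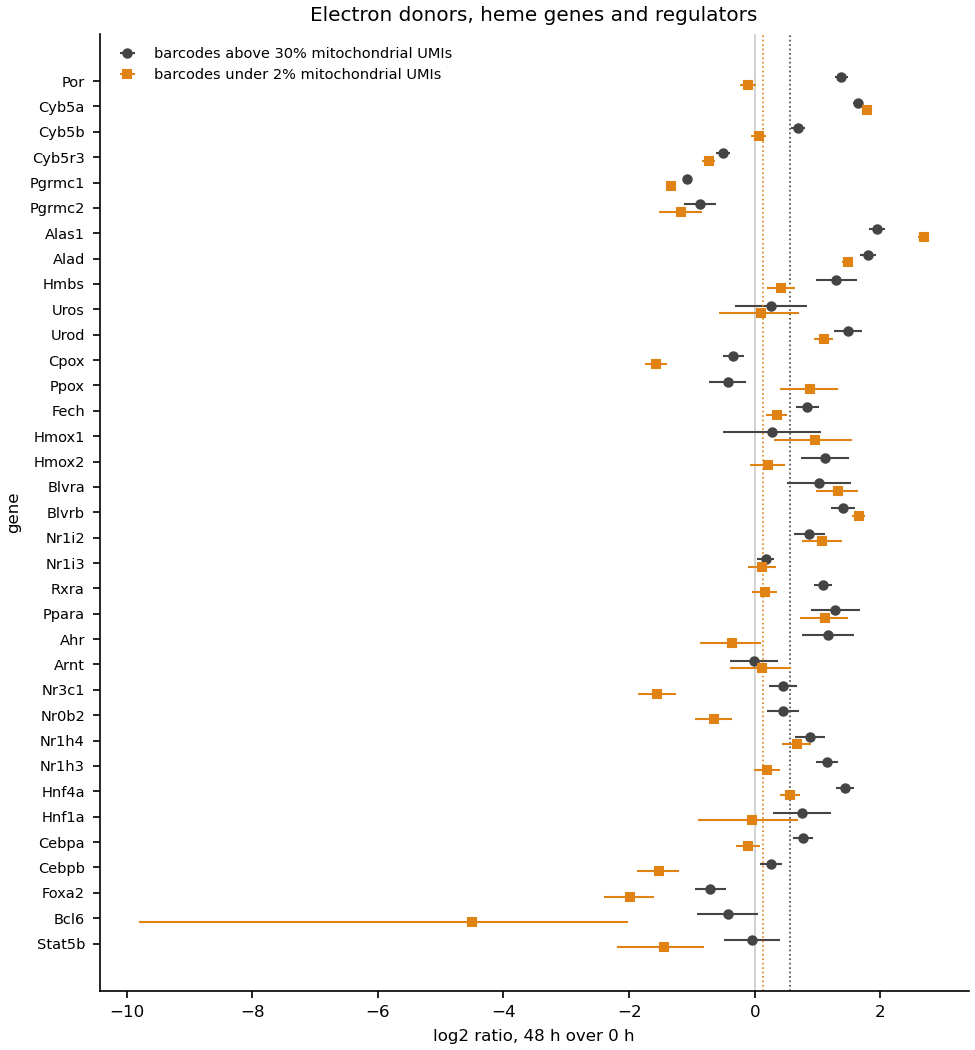
Log2 ratio of 48 h over 0 h for electron donors, heme genes and regulators with at least 20 UMIs in both sets (circles above 30% mitochondrial UMIs, squares under 2%), with 95% counting intervals. Dotted lines mark the medians of all genes (0.56 and 0.14). Alas1, Alad and Cyb5a lie to the right in both sets, and Pgrmc1 lies to the left.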

How the data were processed

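Each of the 2 libraries, 1 per group by its labelled time point, was processed by the authors with Cell Ranger (version not given in the sources used here) against mm10, per the submitters' processing notes, and the deposited values were UMI counts per gene and barcode, whole numbers without normalization. UMIs were summed over barcodes above 30% and under 2% mitochondrial UMIs, scaled to 1000000 non-mitochondrial UMIs (CPM), and given exact Poisson intervals. Ratios had exact conditional binomial intervals (95%). A gene at 0 was set to 3 counts. The scripts were tested on simulated data. Python 3.11.15, NumPy 2.4.6, SciPy 1.17.1, pandas 2.3.3 and edgeR 4.0.16 (TMM factors only) were used. Depth was 96118593 and 18198719 UMIs. No doublet caller was run, and no cells were clustered or named.

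Members and lists were chosen with earlier results of these data known. In each subfamily the 3 members with most UMIs and those with the highest and lowest ratio above 30% were named, with all reported members of other subfamilies. Reported members outside this rule, among them Cyp2c37, Cyp2c54 and Cyp2c69, were named after their values were seen. Positions came from GENCODE annotation of GRCm38 by gene identifier (76 of 76 matched), and promoters from RefSeq (GRCm38.p6) by symbol. Alternatives changed the scaling, the low-count filter, an added level, the set limits, the barcodes used, the thinning and the zonation index.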

Additional observations from a re-analysis of the deposited data

Results flagged for a closer look

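Cyp2b10 and Cyp3a59 moved in opposite directions in the 2 barcode sets, with intervals on opposite sides of 0. Cyp2b10 had a log2 ratio of 1.80 above 30% mitochondrial UMIs and -0.85 under 2%. Cyp3a59 had a log2 ratio of 0.74 above 30% and -0.85 under 2%. Under TMM scaling the Cyp3a59 ratio above 30% was 0.18, so its distance from 0 depended on the scaling. With 1 library per group, the difference between the sets was not tested, and 30.4% of all genes deep enough in both sets also had opposite directions.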

How the results depend on the processing

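No paired analysis was possible because each group has 1 library, and no library could be left out. Counts and ratios were recomputed under other scalings, filters, set limits and barcodes, and the sums of Cyp2a and Cyp4a, a few members and the thinned shares of barcodes turned in direction under at least 1 of them. Of 86 recomputed main counts and summaries, 79 stayed within 1.5 times their value and 7 did not. Above 30% mitochondrial UMIs, members at least 2-fold lower numbered 23 with TMM and 23 with median-of-ratios scaling, against 14. Members at least 2-fold higher numbered 12 with a minimum of 1 UMI and 4 in barcodes of 2% to 30%, against 7. Under 2%, they numbered 19 with a minimum of 1 UMI and 2 with 5 CPM added, against 6. Without thinning, 0 subfamilies were in a lower share of barcodes at 48 h, against 6 at 500 UMIs. The cause was not tested. Cyp2a4 had a log2 ratio of 1.63 above 30% with 5 CPM added, against 5.99. Over all barcodes, Cyp3a11 had a log2 ratio of -1.22 and Cyp2b10 of 0.50. Members under 20 UMIs gave no usable ratio at this depth.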

Other observations

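The 743 high-mitochondrial barcodes of the PHx48h library were ranked by the level of 15 proliferation genes, a choice made after the data were seen. The upper end (74 barcodes, median 6472.5 non-mitochondrial UMIs) was set beside the other 669 (median 4111). All members together were at 13192 CPM in the upper end and 13859 in the rest, so their sum was near equal. Without Cyp3a11 the members were at 6078 and 7318 CPM (log2 -0.27, interval -0.32 to -0.22), while Cyp3a11 itself was slightly higher in the upper end (log2 0.12). Cyp2a5 was at 291 CPM in the upper end and 612 in the rest (log2 -1.08, interval -1.30 to -0.86). Cyp3a59 was at 54.8 and 119 (log2 -1.12) and Cyp3a25 at 517 and 797 (log2 -0.62). Cyp2c54 was higher in the upper end, at 98.9 and 59.5 (log2 0.73, interval 0.31 to 1.13), as was Cyp2c50, at 370 and 288 (log2 0.36). Cyp2c29 was level at 662 and 661. All barcodes came from 1 library and the ends differed in depth, whose part was not tested.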
